A study of Arabidopsis thaliana with 9 samples.

Results

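The 132 probe sets described here were higher in leaves of the induced DVL4 line than in both kinds of control leaf, while the 2 control means lay close together. They were chosen by their measured values, out of 22746 probe sets on the array that are not hybridisation controls. A probe set, a group of short probes on an array for a single transcript, was kept on 4 conditions. The 2 control means differed by under 0.4 on the log2 scale, the DVL4 dex mean exceeded each control mean by 0.7 or more, every DVL4 dex array was above every control array, and the DVL4 dex mean intensity was above 80. The genes XTH19, WES1, SIM, AT1G75990 and the ATG8 genes were left out by name. The members are 0.580% of the probe sets. Of the 132, 71 are listed with 1 gene each, 1 is listed with several genes, and 60 are unnamed here and are given by probe set ID.

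DVL4 belongs to the DEVIL family, also called RTFL, of very small plant peptides that are found at the plasma membrane and alter organ shape when overproduced. In the GVG system a chimeric transcription factor is held inactive until it binds a glucocorticoid such as dexamethasone (dex), and it then switches on the sequence placed behind its target promoter. An empty vector line carries the same factor without a plant coding sequence behind that promoter, so it serves to show what dex and the factor do by themselves.

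All plants were Arabidopsis thaliana of the Columbia background and carried a GVG construct. Leaves of the GVG DVL4 line treated with 30 µM dex (DVL4 dex) were set against leaves of the empty vector line given the same dose (empty vector dex) and against mock-treated leaves of the GVG DVL4 line (DVL4 mock). Plants had 6 rosette leaves, grew at 22 °C with 16 h days, and were harvested 10 h after treatment. Each of the 3 biological replicates per group pooled the largest leaf of 20 plants. The labels name 1 line per construct, and mock-treated empty vector leaves were not among the groups. The empty vector dex and DVL4 mock groups therefore differ in both line and treatment. No probe set is named DVL4 here, so its induction was not checked. Both comparisons use the same 3 DVL4 dex arrays, and they are not independent of each other.

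Array medians were close, between 75.1 and 83.8 intensity units. Named probe sets cover only some of the cell type markers, 3 of 10 for leaf mesophyll, 4 of 7 symbols on 3 probe sets for guard cells and the stomatal lineage, 1 of 5 each for trichomes and epidermis, 3 of 5 for roots, and none for phloem, xylem and flowers. The mesophyll markers LHCB4.1, RCA and PRK, which serve light harvesting and carbon fixation, read 7295 to 11254 on every array, and the root markers PYK10, EXPA7 and EXPA18 read 13.2 to 57.3. TRY, a repressor of trichome fate, read 107.5 to 112 in DVL4 dex, 204 to 264 in empty vector dex and 234 to 276 in DVL4 mock leaves. The epidermal gene FDH read 1821 to 2665, 1792 to 2087 and 2731 to 3306 in the same groups. The averages of the stomatal lineage markers did not go one way. FAMA, for which FMA is another symbol on the same probe set, averaged 101, 116 and 144 in the same groups. MUTE averaged 23.1, 20.5 and 17.0 and SPCH 26.3, 6.06 and 17.8. Both were dim, and single arrays ran from 12.9 to 34.9 for MUTE and from 1.93 to 64.0 for SPCH. The 64.0 is from a DVL4 dex array, so the SPCH mean there rests largely on 1 array and no direction is read from it. In pooled leaves, a change in the share of a cell type and a change in RNA per cell cannot be told apart, and the part of cell types in the values below was not tested. On 3 arrays the 5′ probe set of a spiked control transcript, dap, read under 0.5 of its 3′ probe set. These were DVL4 dex 1 (0.278), DVL4 dex 2 (0.262) and empty vector dex 1 (0.228), against 0.601 to 1.33 on the other 6. The same ratio of the plant transcript GAPDH, a sign of RNA quality, was 0.171 to 0.390 in DVL4 dex, 0.210 to 0.419 in empty vector dex and 0.475 to 0.574 in DVL4 mock leaves. The mock arrays thus stood above both dex groups in it, and its part in the values below was not tested.

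The members stood a median of 0.88 log2 units above empty vector dex and 1.05 above DVL4 mock, where the medians over all probe sets were near 0 and 0.01. As folds, these medians were 1.84 and 2.06. The smaller of the 2 differences ranged from 0.70 to 2.98, with a median of 0.85. It reached 2-fold in 34 members and 3-fold in 4. DVL4 dex means ran from 82.5 to 3582 intensity units with a median of 343, where the median over all probe sets was 78.0 and the rule asks for more than 80. Of the members, 24 had a DVL4 dex mean above 1000 and 20 had one under 160. By limma's moderated test with Benjamini-Hochberg adjustment over all 22746 probe sets, 119 members passed an adjusted p of 0.05 as higher against empty vector dex, where 4.62% of all probe sets did. Against DVL4 mock 131 passed, where 12.8% of all probe sets did. Full separation of the DVL4 dex arrays above the 6 control arrays held for 9.08% of all probe sets. The members were selected on these same contrasts, so their counts describe the selection and are read no further.

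**Figure D1:**
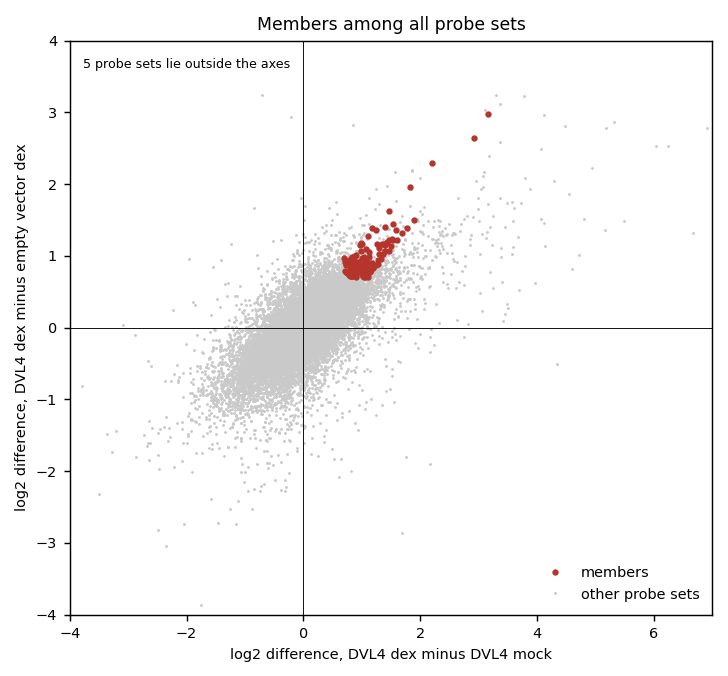
Each point is a probe set, placed by its log2 difference DVL4 dex minus DVL4 mock (horizontal) and DVL4 dex minus empty vector dex (vertical); the 132 members are red and all others grey. The members lie above 0.7 on both axes by choice, most of them close to that corner, and 3 stand beyond 2 on both; 5 probe sets that are not members fall outside the axes, and both axes share the DVL4 dex arrays.

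The 5 members with the largest smaller difference are all unnamed here, and they are described by ID after their values were seen. Probe set 263231_at read 154, 192 and 394 in DVL4 dex leaves, 17.0, 34.4 and 40.1 in empty vector dex leaves and 25.7, 19.2 and 33.4 in DVL4 mock leaves. It is low on all 6 control arrays, and the 3 DVL4 dex arrays, with dex 3 the highest, are all far above them. Probe set 254805_at read 926, 1001 and 475 in DVL4 dex leaves, 153, 134 and 88.9 in empty vector dex leaves and 147, 60.7 and 114 in DVL4 mock leaves. Its DVL4 dex 3 value is well below the other 2 DVL4 dex arrays and still far above every control. Probe set 260221_at, the next, read 3362, 3852 and 3312 in DVL4 dex leaves, 851, 682 and 624 in empty vector dex leaves and 662, 905 and 744 in DVL4 mock leaves. The control groups overlap and lie far below the DVL4 dex arrays, with log2 differences of 2.30 ± 0.14 against empty vector dex and 2.20 ± 0.14 against DVL4 mock (SE from limma). Probe sets 260287_at and 246114_at followed, at 3.90- and 2.83-fold over empty vector dex and 3.53- and 3.71-fold over DVL4 mock. Unnamed members made up 15 of the 34 with at least 2-fold, and their median smaller difference was 0.85, against 0.86 in the members with 1 gene.

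Values in every array follow for the 24 members with 1 gene that have the largest smaller difference, which runs from 1.89- to 2.76-fold in them. They are ordered by what their products are known to do, and this grouping was made after the values were seen. Of the 71 members with 1 gene, 51 could be placed in 12 groups of role or protein family. No group holds more than 9 members.

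Members that act in gene regulation numbered 6, at 1.65- to 3.08-fold over empty vector dex and 1.66- to 2.77-fold over DVL4 mock. AT5G50915, a basic helix-loop-helix transcription factor, read 1214, 1471 and 1383 in DVL4 dex leaves, 439, 446 and 431 in empty vector dex leaves and 493, 492 and 485 in DVL4 mock leaves. The control arrays span a narrow band, with the empty vector dex arrays just under the mock arrays, and the DVL4 dex arrays lie far outside it. The log2 differences were 1.62 ± 0.08 against empty vector dex and 1.46 ± 0.08 against DVL4 mock, the largest smaller difference among members with 1 gene. AT2G34750, a relative of the RRN3 initiation factor with which RNA polymerase I transcribes ribosomal RNA genes, read 1405, 1246 and 1163 in DVL4 dex leaves, 615, 427 and 602 in empty vector dex leaves and 486, 391 and 506 in DVL4 mock leaves. It was high and even in DVL4 dex leaves, and the 2 control groups overlapped. AT4G27240, a C2H2 zinc finger protein, read 134, 166 and 129.6 in DVL4 dex leaves, 58.5, 82.4 and 82.1 in empty vector dex leaves and 59.7, 55.0 and 56.2 in DVL4 mock leaves. Here empty vector dex arrays 2 and 3 were above all mock arrays, and DVL4 dex was above both. The other 3 were AT5G46780, a VQ-motif protein, AT3G25150, which carries RNA-binding and NTF2-like domains, and AT1G04990, a CCCH zinc finger protein, with 1.84-, 1.65- and 1.65-fold over empty vector dex.

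In signalling there were 4 members. AT1G47380, a protein phosphatase of the PP2C family, read 253, 228 and 334 in DVL4 dex leaves, 84.4, 144 and 139 in empty vector dex leaves and 109, 104 and 104 in DVL4 mock leaves. The mock arrays were nearly equal and lay inside the wider range of empty vector dex, with DVL4 dex above both. AT3G10190, a calmodulin-like calcium sensor, AT4G35987, the methyltransferase of calmodulin, and AT5G56790, a protein kinase family member, stood at 1.87-, 1.72- and 1.72-fold over empty vector dex and 1.82-, 1.69- and 2.20-fold over DVL4 mock.

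Protein breakdown was represented by 5 members, at 1.65- to 1.79-fold over empty vector dex and 1.79- to 2.21-fold over DVL4 mock. AT3G19910 (a RING-type E3 ligase protein) and AT5G27920 (an F-box protein) belong to families that mark proteins with ubiquitin. AT1G33360 resembles ClpX, the unfolding partner of the Clp protease, and SCPL27 is a serine carboxypeptidase-like protein. AT5G47550 is a cystatin, an inhibitor of cysteine proteases, and averaged 1925 ± 212 in DVL4 dex, 1159.8 ± 43.8 in empty vector dex and 1077 ± 112 in DVL4 mock leaves (SD, n = 3 each). None of the 5 is among the 24 with the largest difference.

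Metabolic enzymes formed the largest group with 9 members, at 1.72- to 2.17-fold over empty vector dex and 1.81- to 2.63-fold over DVL4 mock. DELTA-OAT, ornithine aminotransferase of arginine and ornithine breakdown, read 539, 485 and 453 in DVL4 dex leaves, 249, 226 and 231 in empty vector dex leaves and 193, 186 and 182 in DVL4 mock leaves. All 3 groups are tight and separate, with the empty vector dex arrays just above the mock arrays. AT2G42490, a copper amine oxidase, which oxidises amines such as polyamines, read 691, 622 and 603 in DVL4 dex leaves, 319.5, 277 and 360.4 in empty vector dex leaves and 243, 247 and 273 in DVL4 mock leaves. Its lowest DVL4 dex array was 1.67-fold above its highest control array. AT5G39080, an acyltransferase of the HXXXD (BAHD) family, read 861, 967 and 788 in DVL4 dex leaves, 459, 339.6 and 414 in empty vector dex leaves and 368, 319 and 378 in DVL4 mock leaves. The control groups overlap in it, and DVL4 dex stands clear of both. AT1G32780, a member of the alcohol dehydrogenase family, read 165, 179.8 and 171 in DVL4 dex leaves, 104, 73.0 and 74.6 in empty vector dex leaves and 84.5, 67.3 and 86.3 in DVL4 mock leaves. Its empty vector dex 1 value is the highest control value, and DVL4 dex is above it on every array. UGT84A3, a glucosyltransferase that acts on hydroxycinnamic acids, read 1216, 1088 and 1009 in DVL4 dex leaves, 615, 607 and 633 in empty vector dex leaves and 541, 462 and 488 in DVL4 mock leaves. The lowest DVL4 dex value was 1009 and the highest control value 633. ACLB-1, a subunit of ATP-citrate lyase, which makes acetyl-CoA in the cytosol, averaged 1908 ± 162 in DVL4 dex, 1093 ± 235 in empty vector dex and 1037 ± 83.0 in DVL4 mock leaves (SD, n = 3 each). The other 3 were AT1G15410 (aspartate-glutamate racemase family), AT3G60440 (phosphoglycerate mutase family) and AT5G58980 (neutral ceramidase), at 1.86-, 1.88- and 1.72-fold over empty vector dex.

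Of 4 members with the alpha/beta hydrolase fold, AT3G48410 had the largest smaller difference, with 94.9, 97.2 and 74.9 in DVL4 dex leaves, 44.8, 42.6 and 46.3 in empty vector dex leaves and 38.9, 43.4 and 46.8 in DVL4 mock leaves. The control groups coincide, and DVL4 dex 3 is the lowest of the DVL4 dex arrays. The other 3, AT5G47330, AT5G19290 and AT5G14390, stood at 1.79-, 1.67- and 1.95-fold over empty vector dex and 2.04-, 1.86- and 1.63-fold over DVL4 mock. In AT5G14390 DVL4 mock was above empty vector dex on every array, so its smaller difference is the one against mock.

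The secretory pathway and cell wall gave 4 members. AT2G43590, of the chitinase family, read 1387, 1432 and 1322 in DVL4 dex leaves, 631, 565 and 412 in empty vector dex leaves and 392, 456 and 362 in DVL4 mock leaves. It has the largest fold over DVL4 mock among members with 1 gene, 3.44, and 2.61 over empty vector dex, and its control means are 0.39 log2 units apart, almost at the limit of the rule. AT3G18280 (a lipid transfer protein), AT1G74800 (a galactosyltransferase of arabinogalactan proteins) and AT2G03280 (O-fucosyltransferase family) stood at 1.67-, 1.65- and 1.85-fold over empty vector dex.

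Membrane proteins numbered 5, and AT1G72820, a mitochondrial carrier, had the largest folds of them, with 396, 415 and 369 in DVL4 dex leaves, 172, 155 and 189 in empty vector dex leaves and 152, 149 and 138 in DVL4 mock leaves. The empty vector dex arrays lie just above the mock arrays, and each DVL4 dex array has at least 1.96 times the highest control value. AT2G01080 (a hydroxyproline-rich late embryogenesis abundant family protein) and AT2G01070 (of a transmembrane receptor-like family) are adjacent protein-coding genes in the RefSeq order of the TAIR10.1 assembly, the only such pair among 70 placed member genes. AT2G01080 read 232, 257 and 196 in DVL4 dex leaves, 184, 98.2 and 99.1 in empty vector dex leaves and 98.7, 84.3 and 119.8 in DVL4 mock leaves. Its empty vector dex 1 value nearly reaches the DVL4 dex arrays, and the other 5 control values are far lower. AT2G01070 read 383, 317 and 344 in DVL4 dex leaves, 174, 187 and 228 in empty vector dex leaves and 162, 162 and 134 in DVL4 mock leaves. Its empty vector dex arrays are all above its mock arrays, and the DVL4 dex arrays are above both. MAMI, an endoplasmic reticulum-linked protein named for its induction by mannitol, and AT5G43745, annotated as a plastid ion channel, stood at 1.69- and 2.03-fold over empty vector dex.

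Families linked to stress gave 4 members. AT4G27450, which resembles an aluminium-induced protein, read 177, 212 and 147 in DVL4 dex leaves, 101, 44.6 and 60.8 in empty vector dex leaves and 70.2, 63.6 and 50.3 in DVL4 mock leaves. Its empty vector dex arrays spread more than 2-fold and enclose the mock arrays. AT1G78460, of the SOUL family of heme-binding proteins, read 817, 745 and 667 in DVL4 dex leaves, 256, 325 and 265 in empty vector dex leaves and 286, 317 and 242 in DVL4 mock leaves. Its control means coincide, and the log2 difference was 1.40 ± 0.13 against empty vector dex and 1.40 ± 0.13 against DVL4 mock. AT4G28240, of a wound-responsive family, averaged 1337 ± 233 in DVL4 dex, 757 ± 103 in empty vector dex and 595 ± 55.8 in DVL4 mock leaves (SD, n = 3 each). AT3G62950, a glutaredoxin, averaged 89.8 ± 6.58 in DVL4 dex, 50.3 ± 6.24 in empty vector dex and 51.1 ± 4.86 in DVL4 mock leaves (SD, n = 3 each).

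The small groups were pairs. In AT5G43310, a protein related to a COP1-interacting protein (COP1 represses light responses in darkness), intensities were 406, 390.1 and 244 in DVL4 dex leaves, 197, 149.6 and 195 in empty vector dex leaves and 176, 181 and 166 in DVL4 mock leaves. DVL4 dex 3 lies well below the other 2 DVL4 dex arrays and above the controls. Its relative AT1G72410 is described below with its other probe set. KICP-02, a kinesin that moves along microtubules, averaged 876 ± 175 in DVL4 dex, 486 ± 172 in empty vector dex and 394 ± 52.9 in DVL4 mock leaves (SD, n = 3 each), and AT5G52280, a myosin heavy chain-related protein, averaged 165 ± 18.4 in DVL4 dex, 99.5 ± 32.3 in empty vector dex and 89.0 ± 10.9 in DVL4 mock leaves (SD, n = 3 each). AT4G18820 and AT4G02480, both ATPases of the AAA type, stood at 1.88- and 1.69-fold over empty vector dex. Of other families, AT5G54200, a WD40 repeat protein, read 173, 189.5 and 185 in DVL4 dex leaves, 81.0, 57.7 and 102 in empty vector dex leaves and 52.5, 59.4 and 68.5 in DVL4 mock leaves. The control groups overlap, and DVL4 dex is narrow and clear of them. AT3G60300 (RWD domain), AT5G16450 (RraA-like) and AT4G03030 (kelch repeat) stood at 1.82-, 1.70- and 1.69-fold over empty vector dex.

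For 20 members with 1 gene no role is given, and 9 of them are among the 24. AT3G27770 read 2256, 2137 and 2074 in DVL4 dex leaves, 991, 825 and 974 in empty vector dex leaves and 728, 689 and 812 in DVL4 mock leaves. Its lowest DVL4 dex value was 2074, and its highest control value was 991. AT2G46490 read 826, 769.5 and 835 in DVL4 dex leaves, 320.2, 334 and 290.3 in empty vector dex leaves and 308, 319 and 402 in DVL4 mock leaves. The control groups overlap, mock array 3 being the highest of them. AT1G07040 read 649, 585 and 619 in DVL4 dex leaves, 281, 273 and 273 in empty vector dex leaves and 281, 244 and 249.9 in DVL4 mock leaves. Its controls overlap between 244 and 281. AT1G13990 read 623, 589 and 525 in DVL4 dex leaves, 229, 330.3 and 277 in empty vector dex leaves and 275, 195 and 194 in DVL4 mock leaves, with controls that overlap and lie clear of DVL4 dex. For AT2G20500 the values were 224, 233 and 139 in DVL4 dex leaves, 97.2, 87.2 and 77.7 in empty vector dex leaves and 79.3, 80.6 and 61.3 in DVL4 mock leaves. DVL4 dex 3 is again the lowest of the 3. AT1G27210 read 219.5, 243 and 274 in DVL4 dex leaves, 112, 103 and 112 in empty vector dex leaves and 119, 132 and 115 in DVL4 mock leaves, and AT1G10020 read 235, 209 and 295 in DVL4 dex leaves, 105, 119 and 126 in empty vector dex leaves and 106, 117 and 148 in DVL4 mock leaves. In these 2, mock was above empty vector dex on average, and DVL4 dex 3 was the highest DVL4 dex array. AT2G27830 read 316, 363 and 276 in DVL4 dex leaves, 157, 166 and 156 in empty vector dex leaves and 180.5, 153 and 113 in DVL4 mock leaves. Its mock arrays spread around the empty vector dex arrays. AT5G15190 read 103, 102 and 77.1 in DVL4 dex leaves, 47.7, 44.8 and 44.8 in empty vector dex leaves and 36.5, 35.8 and 37.2 in DVL4 mock leaves. The controls of AT5G15190 are separated from each other as well as from DVL4 dex.

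**Figure D2:**
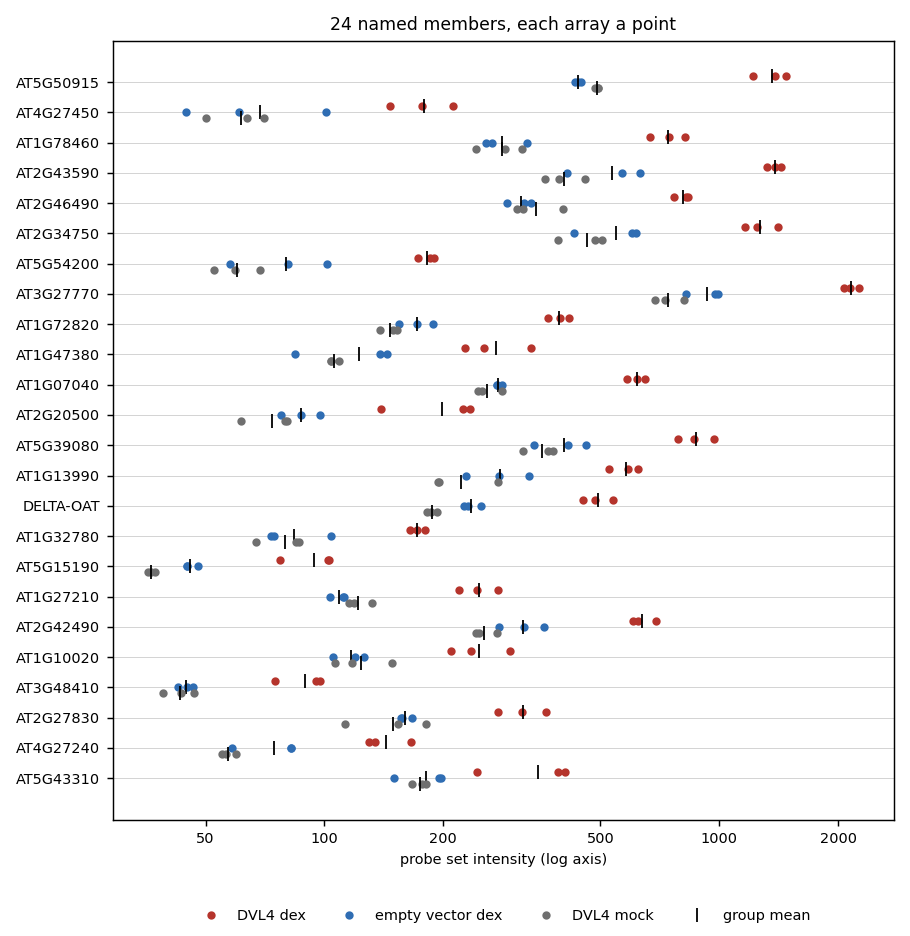
Intensity (log axis) of the 24 members with 1 gene that have the largest smaller difference, 1 row per gene; points are arrays of DVL4 dex (red), empty vector dex (blue) and DVL4 mock (grey), 3 each, and ticks are group means. In all 24 rows the red points lie to the right of every blue and grey point, and blue and grey points lie close together or overlap.

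The replicate arrays of a group did not all give the members the same level. Relative to the mean of the 2 control means, the median member stood at 0.99, 1.03 and 0.85 log2 units on DVL4 dex arrays 1, 2 and 3, at 0.14, -0.03 and 0.13 on the empty vector dex arrays and at -0.04, -0.15 and -0.04 on the DVL4 mock arrays. DVL4 dex 3 was the lowest of its group in 87 members, 65.9%, against 40.8% of the 11278 probe sets with a DVL4 dex mean above 80. DVL4 dex 3 was the highest in 22 members, 16.7% against 38.9%. DVL4 dex 1 was the highest in 34.1% against 18.5%, and DVL4 dex 2 in 49.2% against 42.7%. In the controls, empty vector dex 2 was the lowest of its group in 70 members, 53.0%, against 47.2% of the probe sets with an empty vector dex mean above 80. DVL4 mock 2 was the lowest in 66 members, 50%, against 45.5% of the probe sets with a DVL4 mock mean above 80. The median SD over the 3 arrays of a group, in log2 units, was 0.14 in DVL4 dex, 0.22 in empty vector dex and 0.13 in DVL4 mock, against 0.13, 0.18 and 0.10 in the 11278 probe sets. The empty vector dex arrays thus varied most, in the members and in all probe sets above 80. A gap of at least 0.5 log2 units between the lowest DVL4 dex and the highest control array was found in 71 members, and a gap under 0.1 in 5. The rule asks for a gap above 0 in every member, where 9.08% of all probe sets have one. The share of all probe sets with a gap of 0.5 was not counted, so these counts only describe the selection. The narrowest gaps were those of AT5G58980, AT1G72410 and AT5G52280 among members with 1 gene.

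**Figure D3:**
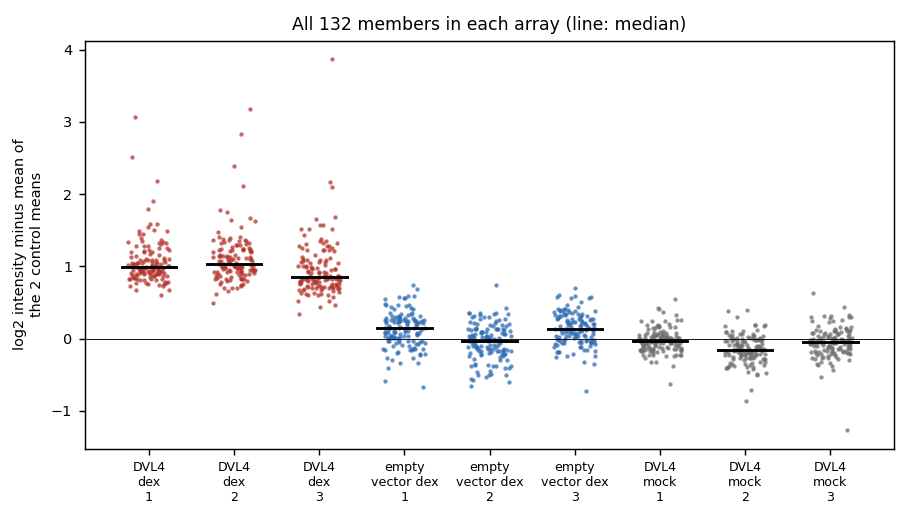
Log2 intensity of all 132 members on each of the 9 arrays, relative to the mean of the 2 control means of the same member; points are members and bars are medians. The bars of DVL4 dex stand at 0.99, 1.03 and 0.85, and those of the 6 control arrays between -0.15 and 0.14.

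An array left out of the selection gives values that the rule has not seen. With DVL4 dex 1 left out, the rule on the other 8 arrays found 128 probe sets, and all 128 were above every control array on DVL4 dex 1, where 19.3% of all probe sets were. With DVL4 dex 2 left out, 119 of 120 were above (all probe sets 26.1%). With DVL4 dex 3 left out, 158 of 179 were above (all probe sets 19.0%). The median smaller difference on the left-out array was 0.91 log2 units for DVL4 dex 1, 0.93 for DVL4 dex 2 and 0.65 for DVL4 dex 3. Only 75 of the 179 reached 0.7 on DVL4 dex 3, and the lowest stood at -0.92. The control arrays took part in each of these selections, so only the DVL4 dex side is unseen.

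The split of arrays by the dap ratio crosses the groups, since DVL4 dex 3 has a high ratio and DVL4 dex 1 and 2 low ones. On the 6 high-ratio arrays alone, with DVL4 dex 3 as the only induced array, the median member was 0.83 log2 units above empty vector dex (range 0.27 to 3.41) and 0.95 above DVL4 mock (0.38 to 3.95). On the 3 low-ratio arrays alone it was 0.91 above empty vector dex (0.34 to 3.34). That all members are positive within each set is fixed by the rule, which asks for every DVL4 dex array above every control array. On the high-ratio arrays 98 of 132 reached 0.7 against empty vector dex and 117 against DVL4 mock. On the low-ratio arrays 102 did so against empty vector dex. The median differences over all probe sets were 0.02, 0.001 and -0.04 in the same order. The members were chosen for a mean rise of 0.7 on these same arrays, so the counts largely follow from the rule and are read no further. DVL4 mock has no low-ratio array, so that comparison could not be made within the low-ratio set.

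Of the 71 genes, 2 have another probe set, and in both it did not follow the member. The member probe set of AT4G02480, 255474_at, read 1249.6, 1208 and 1010.5 in DVL4 dex leaves, 902, 428 and 813 in empty vector dex leaves and 595, 506 and 579 in DVL4 mock leaves. The other, 255475_at, read 93.8, 72.2 and 330.2 in DVL4 dex leaves, 69.9, 206 and 198 in empty vector dex leaves and 164, 158 and 161 in DVL4 mock leaves, with a log2 difference of -0.12 against empty vector dex and -0.30 against DVL4 mock. Its 3 lowest values are those of the 3 arrays with the low dap ratio. The member probe set of AT1G72410, 260448_at, read 148, 119 and 171 in DVL4 dex leaves, 92.6, 61.8 and 116 in empty vector dex leaves and 92.3, 66.4 and 86.5 in DVL4 mock leaves. The other, 260447_at, read 11.2, 10.9 and 48.1 in DVL4 dex leaves, 11.9, 28.1 and 17.1 in empty vector dex leaves and 22.9, 20.0 and 27.5 in DVL4 mock leaves, with a log2 difference of 0.01 against empty vector dex and -0.36 against DVL4 mock. It is dim throughout, and again the 3 low-ratio arrays are its lowest. On DVL4 dex 3, the only induced array with a high ratio, the other probe set was above all 6 controls for both genes. It read 330.2 for AT4G02480 and 48.1 for AT1G72410. The part of the dap ratio in the values of these other probe sets was not tested.

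**Figure D4:**
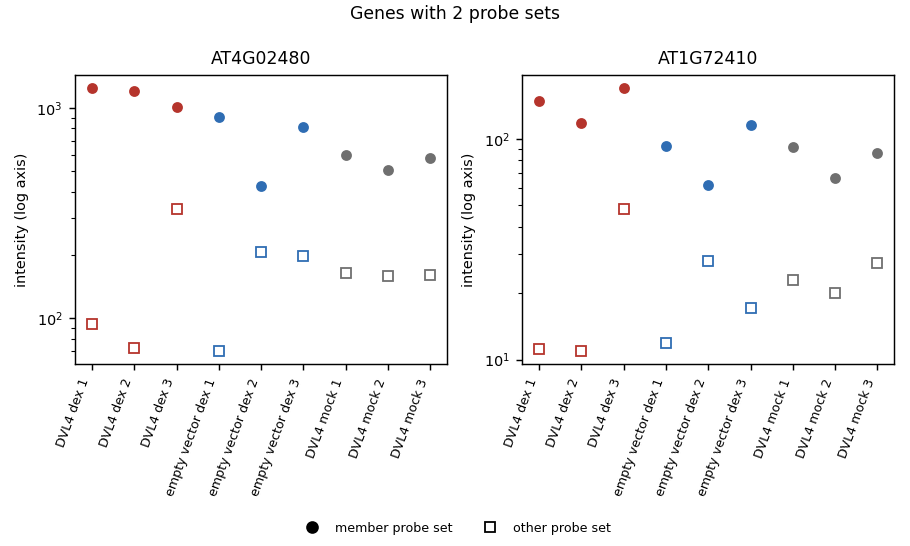
Intensity (log axis) on the 9 arrays for the 2 genes with 2 probe sets; filled circles are the member probe set and open squares the other one. The filled circles are highest in the 3 DVL4 dex arrays, while the open squares are lowest in DVL4 dex 1 and 2 and empty vector dex 1 and highest in DVL4 dex 3.

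The controls were level within the limit set, not equal. Empty vector dex was above DVL4 mock in 102 of the 132 members, where it was above in 52.8% of the 17084 probe sets that meet the same limit. The median control difference of the members was 0.17 log2 units, and it ranged from -0.26 to 0.39. In most members the smaller difference was therefore the one against empty vector dex. Among the 191 probe sets that meet the mirrored rule, lower in DVL4 dex with level controls, empty vector dex was below DVL4 mock in 137, with a median control difference of -0.12. Another 216 probe sets met every condition for a rise except the control limit, and in 211 of them empty vector dex was above DVL4 mock. The share over all probe sets with control means that far apart was not counted, so the 211 are not read as a trait of this set. Of all 22746 probe sets, limma called 944 higher and 467 lower in empty vector dex than in DVL4 mock. The limma 95% interval of the control difference included 0 in 107 members, lay above 0 in 24 and below 0 in 1. Over all 22746 probe sets, 4876 had an unadjusted p under 0.05 by limma in this comparison, that is, an interval without 0. The control limit of the rule acts on the member counts, and they are read no further. The interval lay within 0.7 on either side of 0 in 103 members and within 0.4 in 25. For most members, 3 arrays a group therefore do not bound the control difference by the limit of the rule. Only AT1G04990 passed an adjusted p of 0.05 between the controls by limma (312.6 in empty vector dex against 246 in DVL4 mock, adjusted p = 0.046), where 6.2% of all probe sets did, and the control limit of the rule makes this count small by choice.

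The conditions cut through a continuous range. Nearest inside the limit of 0.7 were 250757_at, AT5G14390 and AT1G12120, and nearest outside it were AT1G19310, 267357_at and 246483_at, whose smaller differences all round to 0.70. For the control limit, 247013_at, AT2G43590 and 246114_at lay just inside at 0.39, and 262767_at, AT5G05480 and AT2G46200 just outside at 0.40 to 0.42. At the intensity limit, 258618_at averaged 82.5 inside, and 261109_at averaged 79.1 outside with log2 differences of 1.76 against empty vector dex and 1.59 against DVL4 mock. Failing a single condition were 1189 probe sets on the size of the rise, 216 on the controls, 68 on intensity and 7 on separation of the arrays.

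The 5 genes left out by name met the same conditions. XTH19, an enzyme that cuts and rejoins xyloglucan in the wall, stood at 9.51-fold over empty vector dex and 9.82-fold over DVL4 mock, and AT1G75990, a proteasome lid subunit gene, at 8.16- and 8.62-fold. WES1 (an auxin-conjugating enzyme), SIM (an inhibitor of the mitotic cell cycle) and ATG8H (an autophagy protein) stood at 3.07-, 1.78- and 1.72-fold over empty vector dex. XTH19 and AT1G75990 exceed every member in fold over empty vector dex, the highest member, 263231_at, being at 7.91-fold.

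Other genes were looked up in 20 lists built by matching gene symbols and listed names, so members known only by a locus number, such as most of those above, could not match them. UGT84A3, in the list of glycosyltransferases, glutathione transferases and cytochrome P450 genes, is the only member matched. XTH19, WES1, SIM and ATG8H, which met every condition and were left out by name, are in the cell wall, auxin, cell cycle and autophagy lists. Each count is of genes that passed limma's adjusted p of 0.05 against empty vector dex and against DVL4 mock, and some genes are in more than 1 list. Over 13350 named genes, 4.01% were higher and 4.82% lower against empty vector dex, and 11.3% were higher and 9.81% lower against DVL4 mock. The list that holds UGT84A3 matched 91 genes, of which 4 were higher and 9 lower against empty vector dex, and 10 were higher and 15 lower against DVL4 mock. Its symbol match also caught cyclophilins such as CYP71, CYP59 and SQN, and SQN is among the 10. Of 11 autophagy genes, 4 were higher and 0 lower against empty vector dex and 6 higher and 0 lower against DVL4 mock. Their median differences were 0.35 and 0.60, where over all named genes the medians were near 0 and 0.01. ATG3 and AT5G66930 were called in neither comparison. All other genes of this list belong to the ATG8 family, which was left out by name, so all the calls are within that family. ATG8H and ATG8E, whose products coat autophagosome membranes, had the largest differences against empty vector dex in the list, 0.78 and 0.76, and the smallest was that of ATG3, the conjugating enzyme, at 0.08. Of 21 membrane traffic genes, 1 was higher and 0 lower against empty vector dex, and 7 were higher and 1 lower against DVL4 mock. Of 26 ubiquitin conjugation genes and ligases, 2 were higher and 1 lower against empty vector dex, and 6 were higher and 0 lower against DVL4 mock. Of 42 cell wall genes, 4 were higher and 2 lower against empty vector dex, and 8 were higher and 8 lower against DVL4 mock. Of 48 transporters, 3 were higher and 7 lower against empty vector dex, and 5 and 10 against DVL4 mock. Of 31 photosynthesis genes, 1 was higher and 2 lower against empty vector dex, and 1 was higher and 1 lower against DVL4 mock.

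Among the other lists, 30 further transcription factors gave 0 higher and 1 lower against empty vector dex, and 5 and 3 against DVL4 mock. The list meant for lipid metabolism matched 18 genes, 9 of them PUB ubiquitin ligases already counted above and others defensins, so its calls (1 higher and 1 lower against empty vector dex, 2 higher and 0 lower against DVL4 mock) do not describe lipid metabolism. FAAH, an amide hydrolase, is the 1 higher, and PUB24, PUB25 and PUB49 are the others. Against empty vector dex the hormone lists gave 1 higher of 12 auxin genes, 3 higher and 2 lower of 11 abscisic acid and drought genes, 1 lower of 2 jasmonate and wounding genes, and none of 2 ethylene, 11 gibberellin, brassinosteroid and cytokinin, and 9 salicylic acid and defence genes. Against DVL4 mock the same lists gave 2 higher for auxin, 2 higher and 2 lower for abscisic acid, 1 lower for jasmonate, 0 for ethylene, 1 higher and 2 lower for the gibberellin group and 1 higher for salicylic acid. The list meant for protein kinases matched 6 genes, among them metabolic enzymes such as PRK and PPDK, with 0 called against empty vector dex and PPDK, BIK1 and ATMPK8 higher against DVL4 mock. The smallest lists were 3 senescence and NAC factors (1 and 2 higher), 2 chaperones (Hsp70-2 lower against empty vector dex, CCS lower against DVL4 mock), 1 proteasome subunit (0 and 1 higher) and 1 cell cycle gene, SIM (higher in each).

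Of the genes that flank a member on the chromosome in the RefSeq order, 67 were measured and are not members. Their median log2 difference was near 0 against empty vector dex and 0.10 against DVL4 mock. Against empty vector dex 5 were higher (7.46%) and 3 lower (4.48%), where 4.01% and 4.82% of all named genes were. Against DVL4 mock 9 were higher (13.4%) and 11 lower (16.4%), where 11.3% and 9.81% were.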

How the data were processed

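Gene expression in rosette leaves was measured on 9 Affymetrix ATH1 arrays, 3 per group. The authors deposited linear intensity, 1 value per probe set and array, made with dChip per the series' design text. Its version, its model and any normalization were not given in the sources used here. All 22810 probe sets were read, and the 64 AFFX controls were left out. Values under 5 were raised to 5 (between 1114 and 1294 per array), log2 was taken, and no further normalization was applied. Arrays limit the precision by their number, 3 per group.

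Sample titles gave the groups and replicate numbers. The members and the gene lists were chosen with earlier results of these data known, and the members on the very contrasts described. Their limma calls and intervals therefore describe the selection and are no test of it. Errors of log2 differences are standard errors from limma (lmFit and eBayes with trend on the 9 arrays together, with no factor besides group). P-values are 2-sided and adjusted by Benjamini-Hochberg over 22746 probe sets. Fold values are 2 raised to the mean log2 difference. The series' design text calls the replicates biological.

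Probe sets were named from the platform's gene table, with 13513 listed with 1 gene, 503 with several and 8730 unnamed here, and 13436 matched a RefSeq gene ID of TAIR10.1, used for names and gene order only. A gene with several probe sets was counted by its brightest one. The 24 members with 1 gene and the largest smaller difference are given in every array, with up to 4 members of each of the 20 gene lists; the largest and smallest differences of a list are named where no member is in it, and only for autophagy. Members beyond these are named by role, and unnamed ones by ID. Roles come from general knowledge. No promoter or protein sequence was used here. Alternatives were quantile normalization, centring, other floors and limits, leaving out dim probe sets or arrays, a replicate block and the dap 5′ to 3′ ratio. R 4.3.3 with limma 3.58.1, Python 3.11.15, pandas 2.3.3, numpy 2.4.6 and matplotlib 3.10.9 were used.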

Additional observations from a re-analysis of the deposited data

How the results depend on the processing

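The rule found 138 members after quantile normalization (120 shared with the 132), 176 after centring each array on its median (all 132 shared) and 120 on the 6 arrays with a high dap ratio (80 shared). A control limit of 0.2 left 69, a rise of at least 1 left 34, and a rise of at least 0.5 gave 333. Leaving out 1 array at a time gave 110 to 179 members. Other limits on controls, intensity and floor gave 112 to 183. For 27 members, the differences were recomputed under 16 alternatives. Of 860 values, 832 moved by less than 1 SD and 28 by more, 20 of these on the high-ratio arrays alone, where only DVL4 dex 3 is induced. The lowest value was 0.48, and a positive sign is largely fixed by the rule.

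Over all probe sets, 2310 were called against empty vector dex, 5389 against DVL4 mock, and 1411 between the controls. On the high-ratio arrays alone the counts were 4, 1364 and 553, with fewer arrays in the fit and DVL4 dex 3 alone assumed to vary like the other groups. Leaving out 1 array gave 983 to 2250 against empty vector dex, 3463 to 6087 against DVL4 mock and 465 to 2091 between the controls. The count fell by over 1.5 times without DVL4 dex 1 (983), DVL4 dex 2 (1315) or empty vector dex 3 (1538) against empty vector dex, and without DVL4 dex 1 (3463) against DVL4 mock. Between the controls it fell without empty vector dex 3 (602) or any mock array (742, 566 and 465). Centring turned the split against empty vector dex to 1475 higher and 1078 lower, where the main split was 1052 and 1258. The split between the controls was 944 higher and 467 lower, and it was 903 and 716 after centring and 855 and 666 after quantile normalization. The causes were not tested.

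With the replicate block the counts were 2021 against empty vector dex, 5090 against DVL4 mock and 1233 between the controls. Deviations of same-numbered arrays of different groups had correlations of -0.15 to 0.14. Those of arrays with different numbers had -0.30 to 0.23, the lowest being DVL4 dex 3 with empty vector dex 1. The numbers were therefore not taken to pair the samples. Shares of promoters with a motif were planned and not run, since no promoter sequence was used here. The files give no detection call, so how far the lowest control value of a member (17.0) lies above background is not known here.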

Other observations

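Of the genes beside a member, AT1G47370, next to the phosphatase gene AT1G47380, moved the other way. It averaged 23.2 in DVL4 dex, 73.4 in empty vector dex and 52.2 in DVL4 mock leaves, and by limma its log2 difference was -1.66 against empty vector dex (adjusted p = 0.00051) and -1.17 against DVL4 mock (adjusted p = 0.00062). It was picked out after its values were seen, from the 67 flanking genes. Among these, AT4G18810 and AT3G19900 were also called lower in both comparisons. AT1G27200, AT3G60450, AT3G08680 and AT3G11770 were called higher in both. The share of all named genes called in both comparisons was not counted, and both use the same DVL4 dex arrays. These calls are therefore not read as a trait of genes beside members.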
